A study of Mus musculus with 15 samples.

Results

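Spaceflight was compared with ground housing over all 15 arrays of the series, 7 from mice that flew and 8 from mice kept on the ground, with the surgical state as an additive factor, so that a single flight difference was estimated for unoperated and operated femora together. Members were chosen by the flight or ground label, and the 15 of 15 arrays carried one. All mice were male C57BL/6J, labelled as 9 weeks old. By the paper this is about the age at surgery, which came days before launch, and the femora were collected several weeks later. The ground groups were run some days apart from the flight groups, with slightly younger mice. The 4 FLT-Sham mice flew with unoperated femora and the 4 G-Sham mice were their unoperated ground controls. The 3 FLT-Surgery mice flew after a segmental bone defect had been cut in the femur, and the 4 G-Surgery mice had the same defect on the ground. In the defect groups a polymer and calcium phosphate graft was inserted, held by a needle in the marrow canal, with saline in its collagen wrap, which the Sham groups did not receive. Each array held RNA of 1 femoral midshaft in Cy5 against a commercial mouse reference RNA in Cy3, and the unit below is the log2 ratio of both. Sham femora carry the tissue label of callus too, although they were not operated.

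Bone is built by osteoblasts, resorbed by osteoclasts and sensed by osteocytes, and it loses mass when it is not loaded. Its marrow holds blood-forming cells, vessels and adipocytes, and a midshaft specimen can carry attached skeletal muscle. BMP and Wnt ligands drive bone formation, secreted and intracellular inhibitors restrain them, and lysyl oxidase cross-links the collagen that is laid down. In bulk RNA, fewer cells of a type and less RNA per cell cannot be told apart.

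The authors describe the RNA as of sub-optimal quality, comparable between flight and ground, and name a freeze-thaw cycle as a possible contributor. Each array carried 55681 probes, and 12493 to 21461 of them (22.4% to 38.5%) had a sample signal (Cy5) well above background. The median number was 15298 in G-Sham, 20144 in FLT-Sham, 16185.5 in G-Surgery and 14125 in FLT-Surgery. With the states as strata, the fitted count was 506.6 probes higher in flight (exact permutation test over 2450 assignments, two-sided, p = 0.755). Probes above background on at least 3 arrays were tested, which left 17697 genes or other features, of which 11104 had a gene symbol. The arrays lay on 3 slides, with 3 flight and 4 ground arrays on slide 1, 4 flight and 3 ground arrays on slide 2, and 1 ground array on slide 3. The array of FLT-Sham replicate 8 stood apart from its group for several gene lists. Of the bone cell markers, 11 of 16 osteoblast, 11 of 14 osteoclast and 5 of 12 osteocyte genes were measured, while all 20 skeletal muscle genes were.

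The additive fit gave few genes that moved with flight. Past the cut-off of the study's methods, a difference of at least 2-fold with an unadjusted p of at most 0.01, were 103 genes higher in flight (0.582% of those tested) and 101 genes lower (0.571%). None passed an adjusted p of 0.05 in limma, where the smallest adjusted p was 0.118, and 1118 genes (6.32%) had an unadjusted p of at most 0.05. The lowest and highest fitted differences were -2.70 and 3.18 on the log2 scale. Flight took up 8.30% of the sum of squares within surgical states (exact permutation test over 2450 assignments of flight within states, p = 0.290). In the dim condition, 51 of the 103 higher genes and 31 of the 101 lower genes were not well above background on any array. Such genes passed the filter only through the condition where they were high, so their p-values are no separate support for a flight difference. Only 5 of the higher and 2 of the lower genes were above background on all 15 arrays. With a normexp background correction, which pulls dim ratios towards 0, 1 gene was higher and 1 lower past the cut-off.

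Most genes did not move the same way in both surgical states. The sign of the flight difference was the same in Sham and Surgery for 36.5% of the 17697 genes, with 2930 higher in both and 3537 lower in both. The most frequent combination was higher in FLT-Sham and lower in FLT-Surgery, with 7502 genes, and 3728 genes had the reverse. Across genes, which are not independent replicates, the Sham and Surgery differences had a Pearson correlation of -0.30, and they share no array. The median gene was 0.20 higher in FLT-Sham and 0.22 lower in FLT-Surgery (medians 0.20 and -0.22). The direction of these medians turned with the scaling, to -0.16 and 0.30 after a further loess, whereas the share of genes with the same sign was 32.4% there. With the number of probes above background as a covariate the share was 45.3%, and the part of that number in the result was not tested further. The test of the difference between states found 0 genes at an adjusted p of 0.05 in limma and 3571 (20.2%) at 0.05 before adjustment. When FLT-Sham replicate 8 was left out, that test gave 2538 genes at the adjusted threshold, and without FLT-Surgery replicate 1 it gave 527.

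**Figure D1:**
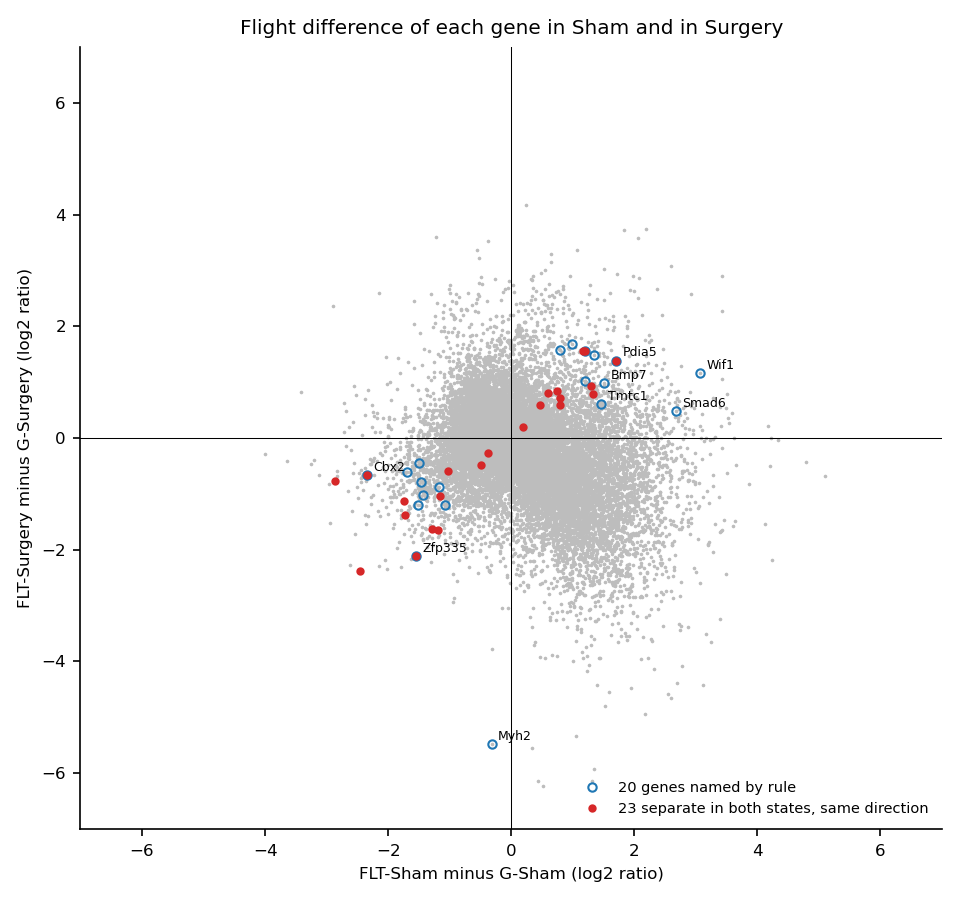
Flight minus ground difference of each of the 17697 genes in Sham (horizontal axis, log2 ratio) and in Surgery (vertical axis, log2 ratio); grey points are genes, blue rings are the 20 genes named by rule, of which 8 carry their symbol, and red points are the 23 features whose arrays did not overlap in either state and moved the same way. The cloud is widest towards the lower right, where 7502 genes were higher in FLT-Sham and lower in FLT-Surgery, and Myh2 lies near 0 on the Sham axis.

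Within a single state the same cut-off called 492 genes in Sham (2.78%) and 474 in Surgery (2.68%). Of these, 6 passed in both states in the same direction (0.0339%) and 21 passed in opposite directions (0.119%). The 6 were Cspp1 and an unnamed probe among those higher in flight, and Zfp335, Pcdhgc5, an unnamed probe and an intergenic region among those lower. Of the 204 genes past the cut-off of the additive fit (1.15%), 102 of 103 and 101 of 101 had the same sign in both states, which the choice by the additive fit nearly fixes.

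A stricter description asked for every flight array to lie on the same side of every ground array within Sham and also within Surgery. It held in the same direction for 23 of the features tested (0.13%), 11 higher (0.0622%) and 12 lower (0.0678%) in flight, and in opposite directions for 61 (0.345%), of which 58 were higher in FLT-Sham and lower in FLT-Surgery. Of the 23, 13 were also past the cut-off of the additive fit (0.0735%). For comparison, 795 features (4.49%) were apart in Sham and 2262 (12.8%) in Surgery, whatever happened in the other state. The number 13 was 39 without FLT-Sham replicate 8 and 43 without G-Sham replicate 5. Of the 13, 4 had a gene symbol, and for all 4 at least 1 group was not well above background on any array.

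Among these 4, Pdia5 and A530072M11Rik were higher in flight. Pdia5 encodes a protein disulfide isomerase of the endoplasmic reticulum, an enzyme that forms and rearranges disulfide bonds in secreted proteins. Its log2 ratios were -1.49, -1.96, -1.88 and -1.53 in FLT-Sham and -4.54, -3.19, -2.89 and -3.06 in G-Sham. They were -1.87, -2.31 and -1.99 in FLT-Surgery and -3.60, -2.39, -3.27 and -4.51 in G-Surgery. All 7 flight arrays were above all 8 ground arrays. No ground array was well above background, and neither was any FLT-Surgery array, against 3 of 4 FLT-Sham arrays. With ground arrays set to the lowest detected signal, the Cy5 difference over both states was 2.49-fold. It counts undetected FLT-Surgery signals as measured, so it is no lower bound for flight as a whole. The fitted difference was 1.56 ± 0.32 (SE, unadjusted p = 0.000223, adjusted p = 0.575 in limma). Pdia5 passed the filter through its FLT-Sham arrays alone.

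A530072M11Rik, a gene known by its clone name, read 2.30, 2.40, 2.29 and 1.57 in FLT-Sham against -0.15, 1.06, 1.44 and 1.44 in G-Sham. In FLT-Surgery it read 2.42, 0.92 and 2.19, against 0.62, -0.94, 0.86 and 0.62 in G-Surgery. The flight arrays were above the ground arrays within each state, but the lowest flight array lay below the highest ground arrays of the other state. The fitted difference was 1.36 ± 0.36 (adjusted p = 0.575), and in Surgery, where no ground array was above background, the level was at least 1.79-fold higher in flight.

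Cbx2 and Zfp335 were lower in flight. Zfp335 encodes a zinc finger regulator of transcription. Its log2 ratios were -1.83, -1.91, -3.04 and -2.97 in FLT-Sham, against -0.68, -1.06, -1.42 and -0.43 in G-Sham. They were -3.60, -3.10 and -2.59 in FLT-Surgery, against -1.29, -2.07, -0.74 and 0.13 in G-Surgery. The groups did not overlap within either state, and the fitted difference was -1.80 ± 0.34 (unadjusted p = 0.000107, adjusted p = 0.465). In Surgery, 3 of 4 ground arrays and no flight array were above background, and the level was at least 2.52-fold higher on the ground. In Sham only 1 flight array and no ground array was above background, so no fold is given.

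Cbx2 encodes a chromobox subunit of a Polycomb repressor complex. It ranged from -3.93 to -2.35 in FLT-Sham and from -1.96 to 1.72 in G-Sham, and from -4.50 to -4.13 in FLT-Surgery and from -3.77 to -3.46 in G-Surgery. The fitted difference was -1.57 ± 0.52 (adjusted p = 0.677), with 3 of the 15 arrays above background. The call was lost in 21 of 29 alternative fits, and without G-Sham replicate 1, the highest array at 1.72, the difference was -1.08. No Surgery array of either condition was among these 3, so the separation in Surgery lies wholly among signals not well above background.

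Both Pdia5 and Zfp335 have a promoter in the RefSeq-derived table of mouse promoters (GRCm38.p6), and these are shown because they are the genes with a promoter there that were apart in both states, 1 in each direction. The stretch before the start site follows, 5′ to 3′ on the gene's strand, with the muscle E-box letters CAGCTG in capitals. The Pdia5 stretch is chr16:35490874-35491123 and the Zfp335 stretch is chr2:164911751-164912000, both on the minus strand.
Pdia5: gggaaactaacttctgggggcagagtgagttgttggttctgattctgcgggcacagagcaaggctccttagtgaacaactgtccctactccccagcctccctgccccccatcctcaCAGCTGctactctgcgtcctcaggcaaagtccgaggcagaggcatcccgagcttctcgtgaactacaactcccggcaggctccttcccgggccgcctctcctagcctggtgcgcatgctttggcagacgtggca
Zfp335: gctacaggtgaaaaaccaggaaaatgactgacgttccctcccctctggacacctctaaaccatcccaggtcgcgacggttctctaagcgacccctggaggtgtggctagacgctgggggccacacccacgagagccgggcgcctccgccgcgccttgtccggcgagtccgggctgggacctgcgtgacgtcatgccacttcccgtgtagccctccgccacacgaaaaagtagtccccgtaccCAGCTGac
Each stretch held CAGCTG once, beginning at position -134 from the start in Pdia5 and at -8 in Zfp335. Of the 14 genes named for their separation or their level, 9 had a promoter in the table, and the letters were found on either strand in 4 of these (Pdia5, Zfp335, Tmtc1 and Il22ra1), against 16.3% of the 32851 promoters of the table. The AP-1 letters TGACTCA were found in 1 of the 9 (Acot5), against 5.2% of all, and the E-box letters CACGTG in none, against 7.15%. A match says only that the letters stand there, and it was found for genes of both directions.

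Of the 10 features that were apart in both states but short of the cut-off, 7 had a gene name, and these were named after their values had been seen, as were 5 further features described with them. Those measured most fully had Cy5 above background on all 15 arrays. Eif2b5, the catalytic subunit of the factor that recharges the initiator of translation, read -1.45, -1.52, -1.56 and -1.37 in FLT-Sham against -0.06, -0.71, -0.09 and -0.92 in G-Sham. It read -1.49, -1.05 and -1.02 in FLT-Surgery against -0.65, -0.70, -0.57 and -0.45 in G-Surgery. All 7 flight arrays lay below all 8 ground arrays, with a fitted difference of -0.83 ± 0.20 (unadjusted p = 0.000958, adjusted p = 0.575). Micu2, a regulator of calcium uptake into mitochondria, was also lower in flight, with a fitted difference of -0.49 ± 0.20 (adjusted p = 0.709). Its flight arrays ranged from -0.76 to -0.22 in Sham and from -0.70 to -0.02 in Surgery, against ground arrays from -0.13 to 0.42 and from 0.02 to 0.64.

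Of the genes higher in flight, a probe that the array design names H19, after the imprinted noncoding RNA, read 0.52, 0.53, 0.42 and 0.45 in FLT-Sham and 0.79, 0.38 and 0.85 in FLT-Surgery. The same probe read -0.52, -0.22, -0.51 and 0.21 in G-Sham and 0.11, -0.16, -0.48 and -0.14 in G-Surgery. All 7 flight arrays were above all 8 ground arrays, with a fitted difference of 0.79 ± 0.19 (unadjusted p = 0.000901, adjusted p = 0.575). Ypel3 was 0.53 ± 0.19 higher (adjusted p = 0.68) and was above background on all 15 arrays. Fah, the last enzyme of tyrosine breakdown, was 0.75 ± 0.24 higher and Rufy2 0.70 ± 0.22 higher (adjusted p = 0.674 for each), both with all 7 flight arrays above background. Serpinb6c, a member of a large family of related serpins whose probes may share signal, differed by 0.19 ± 0.16, and its sign turned to -0.12 with the Cy5 channel alone. An unnamed probe, A_55_P2045234, was above background on every array, with log2 ratios from 3.29 to 3.71 in flight and from 1.32 to 2.95 on the ground. Its fitted difference of 1.35 ± 0.25 (unadjusted p = 6.87e-05, adjusted p = 0.411) was past the cut-off in Sham alone and in Surgery alone.

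The feature with the smallest adjusted p of all, 0.118, was another unnamed probe, A_55_P2149641, with a fitted difference of -2.42 ± 0.35. No flight array was well above background for it, against 3 of 8 ground arrays, so it passed the filter through ground arrays alone. No fold is given because the mean level on the ground did not exceed the mean of the lowest detectable signals. Cspp1, which acts at centrosomes and spindle poles, was past the cut-off in each state, with a fitted difference of 1.93 ± 0.36 (adjusted p = 0.411). Only 3 FLT-Sham arrays were above background for it, and through these alone it passed the filter. In Sham the level was at least 1.47-fold higher in flight, and no bound is given for Surgery. FLT-Sham replicate 8 (-3.79) lay within the G-Sham range of -4.64 to -3.17. Pcdhgc5, a clustered protocadherin that shares exons with its neighbours, was lower in flight by -2.17 ± 0.47 (adjusted p = 0.575). Its Cy5 was above background on 0 flight and 4 ground arrays, and its reference channel on 4 of the 15 arrays. FLT-Surgery replicate 1 read exactly 0.00, which may not be a measured ratio. The Pcdhgc5 level was at least 1.31-fold higher on the ground, and at least 1.17-fold in Sham. A second probe of Col16a1, a fibril-associated collagen, was above background on all 15 arrays and apart in both states, with a fitted difference of -1.24 ± 0.39 (adjusted p = 0.674). In G-Sham the probe read 2.78 in replicate 1 and -0.06 to 0.14 on the other arrays, and without that replicate the difference was -0.90, short of 2-fold. The brighter probe of the same gene gave -0.14 ± 0.22, so the probes of Col16a1 disagreed in size.

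**Figure D2:**
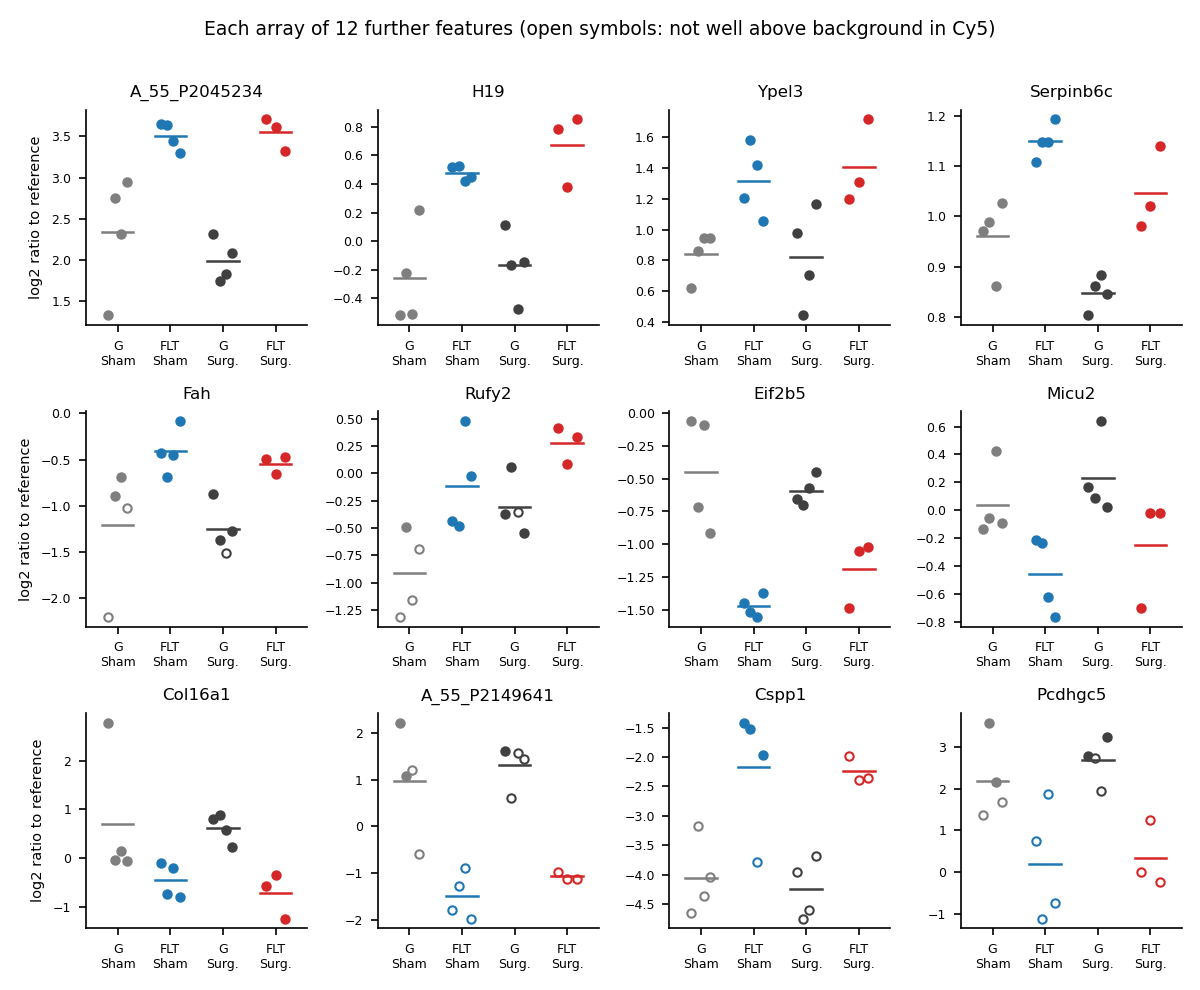
Log2 ratio to the reference (vertical axes) of 12 features on each array of the ground and flight groups, Sham first; bars are group means and open symbols are arrays not well above background in Cy5. Eif2b5 and H19 had all symbols filled and all 7 flight arrays on one side of all 8 ground arrays, while A_55_P2149641 had open symbols on every flight array.

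Genes past the cut-off with the same sign in both states, a symbol, and Cy5 above background on at least 2 arrays of every group formed the better measured set, of which the 5 with the smallest p were named in each direction. None of these 10 was apart in both states. Unc5c, a receptor for netrin guidance cues, read 4.73, 3.82, 3.77 and 4.03 in FLT-Sham against 2.49, 3.54, 1.41 and 3.57 in G-Sham. It read 3.57, 4.60 and 4.35 in FLT-Surgery against 3.66, 2.64, 2.71 and 1.72 in G-Surgery. The groups were apart in Sham, 1 G-Surgery array (3.66) overlapped the FLT-Surgery range, and the fitted difference was 1.41 ± 0.37 (unadjusted p = 0.00173, adjusted p = 0.575). The reference channel was above background on no array for Unc5c, and with the Cy5 channel alone the difference was 0.76, short of the cut-off.

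Cacna1h, the pore of a low-voltage calcium channel, read 2.93, 2.94 and 3.06 in FLT-Surgery against 1.42, 0.82, 1.85 and 1.52 in G-Surgery. In Sham its values were 1.98, 2.42, 2.95 and 3.02 in flight against 1.21, 2.60, 1.54 and 1.88 on the ground, where the groups overlapped. The fitted difference was 1.15 ± 0.28 (adjusted p = 0.575). Nhlh1, a basic helix-loop-helix transcription factor of developing neurons, read 2.11, 2.89, 4.34 and 2.80 in FLT-Sham against 1.21, 2.24, 1.88 and 1.99 in G-Sham. It read 3.11, 1.72 and 2.62 in FLT-Surgery against 2.45, 0.83, 0.65 and 1.87 in G-Surgery. The groups overlapped in both states, and the fitted difference was 1.12 ± 0.37 (adjusted p = 0.677). Tmtc1, a mannosyltransferase of the endoplasmic reticulum, was apart only in Sham, with 2.23 to 3.75 in flight and 0.85 to 2.19 on the ground, and overlapped in Surgery, with 1.85 to 2.70 and 0.90 to 2.03. The fitted difference of Tmtc1 was 1.07 ± 0.32 (adjusted p = 0.674). The noncoding 5730419F03Rik was 1.30 ± 0.41 higher (adjusted p = 0.674), with its arrays apart in Surgery only.

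Of the 5 lower in flight, Rxra encodes the retinoid X receptor alpha, the partner of many nuclear receptors. Its log2 ratios were -0.66, 0.07, 0.86 and -0.87 in FLT-Sham against 1.41, 1.35, 1.44 and 0.97 in G-Sham. They were -0.70, 1.55 and 1.19 in FLT-Surgery against 2.06, 1.09, 1.88 and 1.77 in G-Surgery. The groups were apart in Sham and overlapped in Surgery, where replicate 1 of FLT-Surgery was the lowest, and the fitted difference was -1.24 ± 0.35 (unadjusted p = 0.00319, adjusted p = 0.674). Another tested probe of Rxra had the same sign but was short of the cut-off.

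Kcnk13, a potassium leak channel, read -0.86, -2.14, -0.84 and -2.32 in FLT-Sham against 0.34, 0.22, -0.13 and 0.19 in G-Sham. In FLT-Surgery it read -0.85, 0.32 and -0.15 against 0.40, 0.32, 0.14 and 0.64 in G-Surgery, so that only the Sham groups were clear of each other. The fitted difference was -1.19 ± 0.31 (adjusted p = 0.575). Acot5, a peroxisomal acyl-CoA thioesterase, was apart in Surgery, with 0.65, 2.15 and 2.13 in flight against 3.38, 2.51, 2.74 and 2.75 on the ground. In Sham it ranged from -0.76 to 2.16 in flight and from 1.14 to 2.48 on the ground, and the fitted difference was -1.37 ± 0.40 (adjusted p = 0.674). Il22ra1, a subunit of an interleukin receptor, was lower by -1.15 ± 0.34 with overlap in both states. Evpl, a plakin of cell junctions, was lower by -1.04 ± 0.30 and apart in Sham only (adjusted p = 0.674 for both genes).

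Members of the fixed gene lists that passed the cut-off were few. Of 30 lists, 25 had no such member and the remaining lists together had 6, which fall into bone signalling, matrix, cell division and muscle. Of the 24 genes of BMP and TGF-beta signalling measured, 2 were past the cut-off, both higher in flight (0.582% of all features), and 10 of the 24 had a positive difference (median -0.05, beside -0.00 over all genes tested). Smad6, an intracellular inhibitor of BMP signalling, read -0.13, -0.55, -1.61 and -1.09 in FLT-Sham against -3.72, -4.01, -2.96 and -3.39 in G-Sham. In Surgery its values were -1.92, -3.69 and -1.28 in flight and -1.94, -2.87, -3.95 and -2.36 on the ground. The Sham groups were far apart and the Surgery groups overlapped, with no Surgery array above background. In Sham the level was at least 2.05-fold higher in flight, and no bound is given for Surgery. Smad6 passed the filter through FLT-Sham arrays alone, and its fitted difference was 1.66 ± 0.49 (adjusted p = 0.674).

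Bmp7, a BMP ligand, read -1.27, -1.37, -2.10 and -1.81 in FLT-Sham against -2.94, -2.88, -3.08 and -3.68 in G-Sham, and in Surgery it ranged from -4.19 to -2.11 in flight and from -4.36 to -3.14 on the ground. Bmp7 was above background on FLT-Sham arrays only, and through these alone it passed the filter. It was at least 1.78-fold higher in flight in Sham, and no bound is given for Surgery, where no array was above background. The fitted difference was 1.27 ± 0.33 (adjusted p = 0.575). The list's antagonists Nog and Chrd had differences of -0.59 and -0.50, the same sign in both states, and did not pass (adjusted p = 0.794 and 0.888). Of the ligands, Bmp2 differed by 1.70 in Sham and -2.47 in Surgery, and Bmp4 by -0.64 and 0.63.

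In the Wnt list, 1 of 17 measured genes passed, beside 1.15% of all features. Wif1, a secreted inhibitor that binds Wnt ligands, read 4.57, 4.57, 2.39 and 4.02 in FLT-Sham and -0.02, 0.00, -0.37 and 3.64 in G-Sham. In Surgery it read 2.48, 0.00 and 1.48 in flight and 1.37, -0.74, 0.00 and 0.00 on the ground. It was above background on 3 FLT-Sham arrays and 1 G-Sham array only, and its reference channel was above background on 1 array. Each value of exactly 0.00 came from an array not above background, so it may not be a measured ratio. The fitted difference was 2.19 ± 0.66 (adjusted p = 0.674), and 1.25 with the Cy5 channel alone, short of the cut-off. The ligands Wnt10b and Wnt5a had positive differences in both states (1.13 and 0.86 in Sham and Surgery for Wnt10b, 0.74 and 0.82 for Wnt5a) and did not pass.

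In the list of collagens and matrix remodelling, 1 of 24 genes passed (1.15% of all features), and 18 of the 24 had a negative difference, as had 8877 of all 17697 genes (list median -0.24). Within slide 2 that median was 0.48. Lox, the enzyme that cross-links collagen and elastin, read -2.09, -2.69, -2.18 and -1.40 in FLT-Sham against -1.67, -0.64, -0.71 and -1.06 in G-Sham. In FLT-Surgery it read -1.26, -4.27 and -2.72 against -1.47, -1.40, -1.77 and -1.54 in G-Surgery. The FLT-Surgery values of -4.27 and -2.72 came from arrays not well above background, and the detected one (-1.26) lay above every G-Surgery array. The groups overlapped in both states, by 1 array in each, and the fitted difference was -1.13 ± 0.37 (adjusted p = 0.676). Fn1, the fibronectin gene, and Timp1, an inhibitor of matrix metalloproteinases, were lower in both states (-0.59 and -0.55) with unadjusted p of 0.0182 and 0.0296, and did not pass.

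Among 18 genes of the cell cycle and DNA replication, 1 passed (1.15% of all features). Ccna2, the cyclin of DNA synthesis and entry into mitosis, read -2.20, -2.46, -1.26 and -1.24 in FLT-Sham against 0.44, 0.01, -0.45 and -1.13 in G-Sham, where the groups were apart. In Surgery it read -1.51, -0.43 and -1.03 in flight and -0.22, -0.60, -0.66 and -0.67 on the ground, with overlap. It was above background on all 15 arrays, and the fitted difference was -1.02 ± 0.32 (adjusted p = 0.674). The list's median was -0.23 in Sham and -0.15 in Surgery, but the Surgery median was positive after a further loess (0.20), median centring (0.17) and normexp (0.18).

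Myh2, a fast myosin heavy chain of skeletal muscle, passed the cut-off of the additive fit without moving alike in both states. It read 11.11, 11.11, 10.11 and 12.55 in FLT-Sham against 10.60, 12.63, 10.94 and 11.99 in G-Sham, and 8.77, 4.57 and 5.57 in FLT-Surgery against 10.06, 13.00, 12.41 and 11.65 in G-Surgery. The difference was -0.32 in Sham and -5.48 in Surgery (adjusted p of the difference between states 0.171), and the additive value of -2.70 ± 0.91 (adjusted p = 0.68) lies between them. The mean of the 20 skeletal muscle genes moved with it, from 3.68 to 6.91 over FLT-Surgery arrays and from 5.30 to 7.63 over G-Surgery arrays, and the part of attached muscle in the value was not tested.

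**Figure D3:**
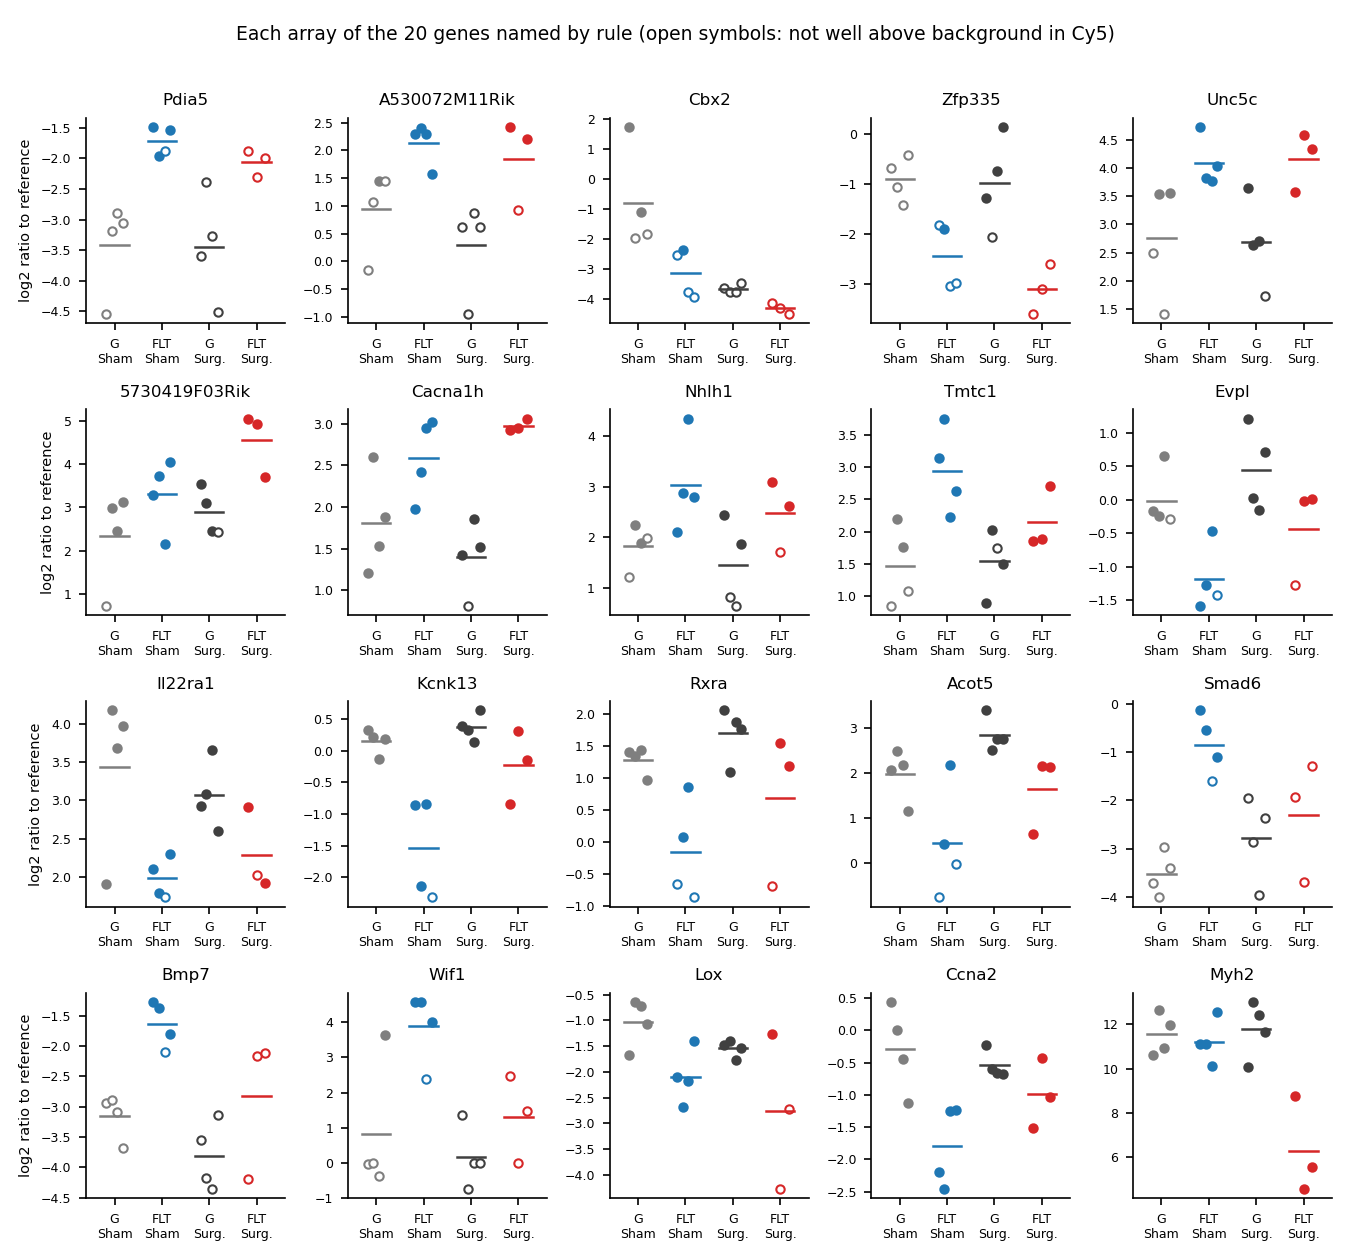
Log2 ratio to the reference (vertical axes) of the 20 genes named by rule on each array of the 4 groups; bars are group means and open symbols are arrays not well above background in Cy5. All 7 flight arrays of Pdia5 lie above all 8 ground arrays, but 4 of the flight symbols and all ground symbols are open; Myh2 differs in Surgery only.

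The medians of most lists had opposite signs in the 2 states, and no list was tested for this. In 25 of the 30 lists the median member was higher in FLT-Sham than G-Sham and lower in FLT-Surgery than G-Surgery, as the median over all genes was. For 11 lists these signs held under all 5 scalings tried (adipocyte, chondrocyte, circadian clock, electron transport, endothelial, erythroid, neutrophil, osteoblast, osteoclast, skeletal muscle and slow-twitch muscle). Within single slides the neutrophil median turned to -0.25 in Sham on slide 1 and to 0.19 in Surgery on slide 2. The osteoclast median turned to 0.03 in Surgery on slide 2. Adipocyte genes had a median additive difference of 0.99, which was 0.33 with normexp and 0.26 within slide 1, with 8 of 11 positive and none past the cut-off (4 at an unadjusted p of at most 0.05). Adipoq, the adipokine adiponectin, differed by 2.71 in Sham and 0.85 in Surgery, and Cd36, a fatty acid transporter, by 2.66 and 0.83. Fabp4, a fatty acid binding protein, differed by 3.39 in Sham and -3.24 in Surgery, and Car3 by 1.09 and -3.26. The mean of the list was 4.51, 4.65, 2.48 and 4.54 in FLT-Sham and -0.40, 1.78, 1.85 and 3.46 in G-Sham, so that replicate 8 of FLT-Sham lay within the ground range. In Surgery the list means were 1.58, -0.39 and -0.98 in flight and 0.25, 1.69, 0.82 and 1.04 on the ground, overlapping.

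All 20 electron transport and ATP synthase genes were higher in FLT-Sham and 1 of the 20 was higher in FLT-Surgery, so that 1 gene (Ndufs1, 0.66 and 0.06) had the same sign in both states. Of the osteoblast and bone matrix genes, 1 of 11 had the same sign. Ibsp, a bone matrix sialoprotein, differed by 2.35 and -0.70, and Alpl, the alkaline phosphatase of mineralising bone, by 2.69 and -1.21. Of the skeletal muscle genes, 6 of 20 had the same sign in both states, 5 of them lower in flight (Myh2, Myh1, Pvalb, Tnnc2 and Myh4). The Sham median of that list was 0.67, and 1.19 without FLT-Sham replicate 8, and that of the electron transport list was 0.67 and 1.15. The number of probes above background moved with these lists, being highest in FLT-Sham and lowest in FLT-Surgery. With it as a covariate the Sham medians were 0.35 for osteoblast, 0.11 for skeletal muscle and 0.32 for electron transport genes. Their Surgery medians were -0.39, -1.36 and -0.46, and all of these were smaller in size than without the covariate. The adipocyte medians were 1.94 in Sham and -0.22 in Surgery with the covariate. With slide as a block the adipocyte medians were 2.29 and -0.66, within slide 1 they were 2.66 and -0.79, and within slide 2 they were 2.17 and -0.07.

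Few lists had medians of the same sign in both states. Osteocyte genes had medians of -0.15 in Sham and -0.71 in Surgery, and both were negative under all 5 scalings. Only 5 osteocyte genes were measured, of which 2 had the same sign in both states and none passed the cut-off. Their Sham median was 0.20 with slide as a block and 0.23 without FLT-Sham replicate 8. Megakaryocyte and platelet genes had the highest share of genes with the same sign, 7 of 11, with medians of 0.29 in Sham and 0.22 in Surgery, beside 36.5% over all genes. Ppbp, a platelet chemokine, differed by 1.70 and 0.42 and Clec1b, a platelet receptor, by 1.13 and 0.57, and none of the 11 passed the cut-off. After a further loess the Sham median of that list was -0.42, so its direction depends on the scaling. Without FLT-Sham replicate 8 the Sham median was 0.97, and within slide 2 the Surgery median was -0.69. T and NK cell genes were the only list with no member higher in FLT-Sham, 0 of 7, with a median of -0.52 in Sham and 0.08 in Surgery. The signs of these medians held under all 5 scalings, but the Surgery median was -0.22 with probes above background as a covariate and also within slide 2. Gzma, a cytotoxic granule protease, was lower in both states (-0.85 and -0.82). The T and NK cell mean ranged from 0.16 to 1.23 in FLT-Sham and from 0.79 to 1.56 in G-Sham, which overlap. Hypoxia and angiogenesis genes had the same sign in 7 of 15, with Vegfb lower in both states (-0.92 and -0.73) and Vegfa higher (0.11 and 0.82). In the circadian clock list 4 of 13 had the same sign, of which the clock activator Arntl (2.29 and 0.51) and the repressor Nr1d1 (2.83 and 0.46) were higher, at adjusted p of 0.69 and 0.712. The transcription factors Hlf (-0.05 and -0.91) and Dbp (-0.01 and -0.70) were lower, and the list median was -0.33.

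**Figure D4:**
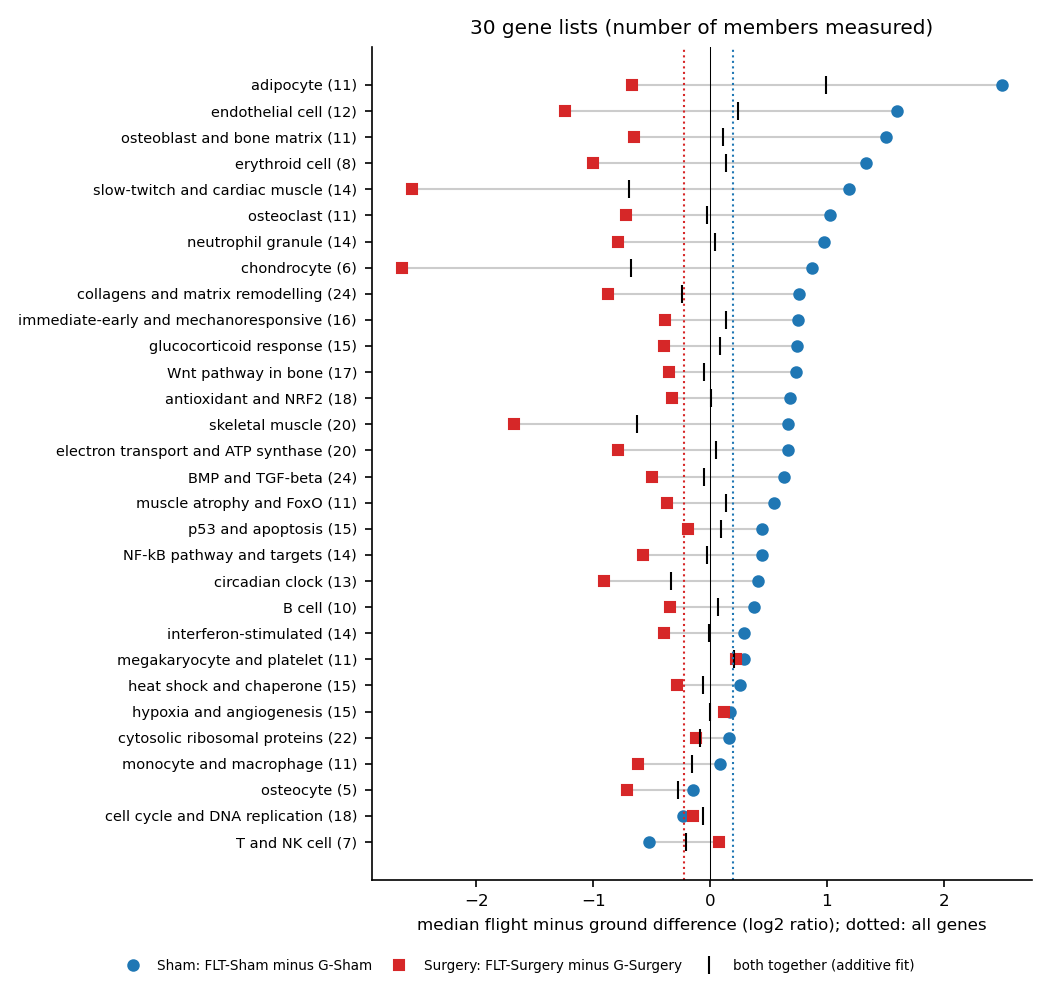
Median flight minus ground difference (log2 ratio, horizontal axis) of the measured members of 30 gene lists in Sham (circles), in Surgery (squares) and in the additive fit (bars); dotted lines are the medians of all genes tested, 0.20 in Sham and -0.22 in Surgery. The circle lies right of 0 and the square left of 0 for 25 of the 30 lists.

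**Figure D5:**
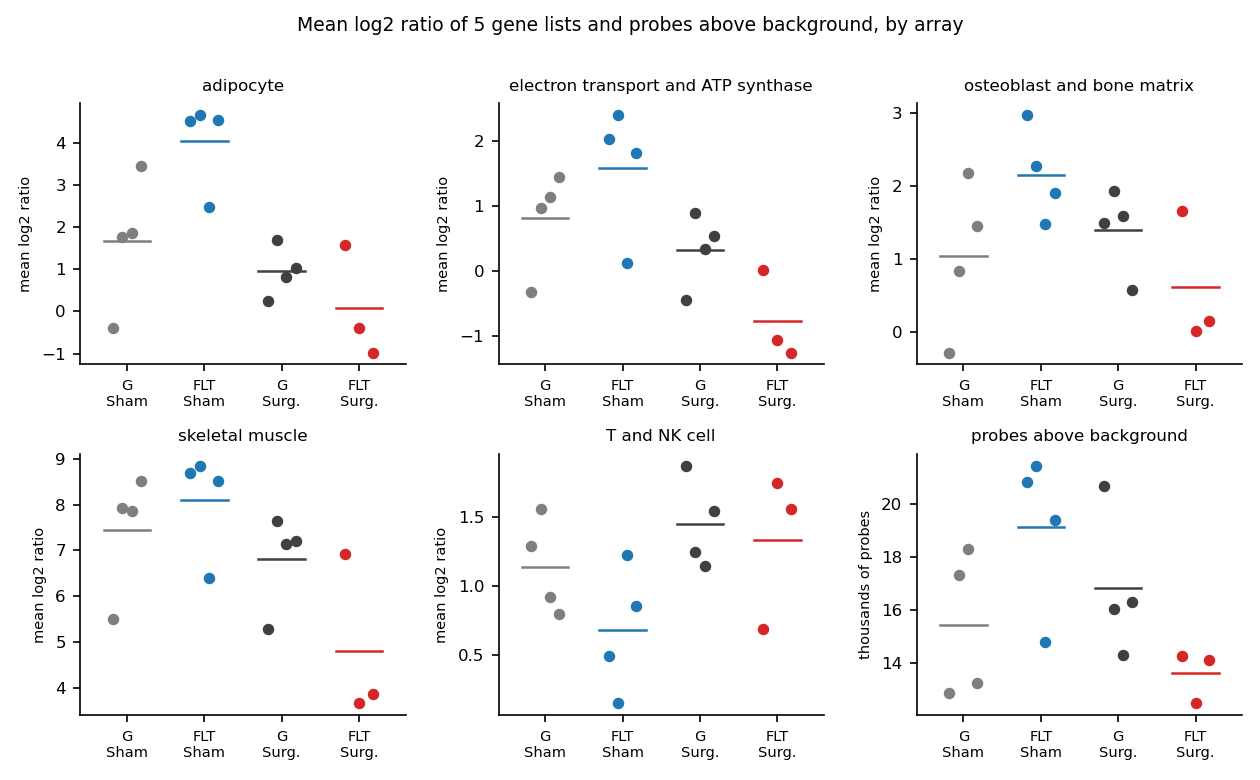
Mean log2 ratio of the members of 5 gene lists, and the number of probes with Cy5 well above background, on each array of the 4 groups; bars are group means. In the adipocyte and skeletal muscle panels FLT-Sham replicate 8 lies below the other 3 FLT-Sham arrays.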

How the data were processed

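The authors deposited Agilent Feature Extraction output per array (version 12.0 in the submitters' processing notes), with background-subtracted, dye-normalized intensity of Cy5 (sample) and Cy3 (reference) and their log10 ratio. A deposited series table held the same log10 ratio to within 0.005. One array per mouse was hybridised, and the genome build of the array design was not used.

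The deposited log10 ratio was converted to a log2 ratio. Control spots and outlier spots (0.396% to 0.666% per array) were left out and spots of a probe were averaged. The 21777 probes with Cy5 well above background on at least 3 of 15 arrays were fitted with limma 3.58.1 in R 4.3.3 (surgical state plus flight), and p was adjusted by Benjamini-Hochberg over all of them. The fit with an interaction gave the difference in each state. A gene was taken by its brightest probe, and 28026 probes matched a RefSeq symbol by accession. The cut-off was 2-fold and unadjusted p 0.01. Lower bounds of folds used the Cy5 intensity after loess and Aquantile normalization, open to dye bias because dyes were not swapped. The dim side was set to the array's lowest detected signal. Undetected arrays on the brighter side kept their measured signal, so a bound holds only as far as those signals do. Promoters came from the RefSeq table. The fit was tested on simulated data.

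Named genes had a symbol and were past the cut-off. Per direction they were those apart in both states, by largest difference, and, where Cy5 was above background on 2 arrays of every group, those with the same sign in both states, to 5 by smallest p. At most 3 members of each list past the cut-off were added. 1 gene that met the rule is not reported here, and the next was taken. Members and lists were chosen with earlier results of these data known. No set tests were run. Alternatives were 17 settings and the omission of each of 15 arrays. P-values measure the spread between single mice, and precision is limited by their number. The paper describes group housing and separate flight and ground runs, so this spread does not cover differences between habitats or runs.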

Additional observations from a re-analysis of the deposited data

Results flagged for a closer look

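In groups of 4 arrays, an array was singled out when its gap to the nearest other array was an unusually large part of the group's range. Over 156 such checks 12 were singled out, where chance gives about 1 in 20, or 7.8. Of the 12, 5 were list means of FLT-Sham replicate 8, which was 2.48 for adipocyte genes (other arrays 4.51 to 4.65), 6.39 for skeletal muscle (8.52 to 8.84), -1.18 for p53 and apoptosis (-0.68 to -0.59), -1.10 for BMP and TGF-beta (0.01 to 0.10) and -1.95 for NF-kB (-1.25 to -1.14). The number of probes above background on that array was 14813, while its group otherwise had 19424 to 21461, and its part in these values was not tested. In G-Sham, replicate 3 was at -0.43 for interferon-stimulated genes (other arrays -1.18 to -1.11) and replicate 1 at -1.66 for hypoxia and angiogenesis (-1.15 to -1.07).

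For single genes, A530072M11Rik was 1.57 in FLT-Sham replicate 9 (other arrays 2.29 to 2.40) and -0.94 in G-Surgery replicate 3 (0.62 to 0.86). Ccna2 was -0.22 in G-Surgery replicate 1 (-0.67 to -0.60), Evpl was 0.65 in G-Sham replicate 4 (-0.30 to -0.17), and Wif1 was 3.64 in G-Sham replicate 5 (-0.37 to 0.00). The other G-Sham arrays were not above background for Wif1. No named gene and no list had its arrays apart in opposite directions in the 2 states.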

How the results depend on the processing

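The genes higher and lower past the cut-off, 103 and 101, were 141 and 48 after a further loess, 147 and 74 after median centring, 88 and 60 with Cy5 alone, 1 and 1 with normexp, 175 and 178 with no filter, 7 and 4 with both channels above background on every array, 73 and 63 with slide as a block, 36 and 65 within slide 1, 72 and 15 within slide 2, and 364 and 381 with array weights. The higher share of calls, 50.5%, was 74.6% after loess, 66.5% after centring, 35.6% within slide 1 and 82.8% within slide 2. Genes at an adjusted p of 0.05 numbered 1 with array weights and 0 under the other settings. Genes past the cut-off and apart in both states, 13, were 0 with normexp, 25 with no filter and 1 with both channels above background; within a slide, with single arrays in some groups, this was not counted. The interaction gave 4 genes with no filter and 1 with array weights.

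The share of genes with the same sign, 36.5%, was 32.4% after loess, 34.6% after centring, 43.4% with normexp, 33.5% with Cy5 alone, 42.2% with no filter, 30.8% with both channels above background, 32.9% within slide 1, 44.2% within slide 2, 43.2% with array weights and 45.3% with probes above background as a covariate. The flight share of the sum of squares did not pass 0.05 in any setting run; it was not run for array weights, group means, any probe or the variance trend.

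Replicate numbers did not pair the arrays: over 4 same-numbered flight and ground pairs the correlation of deviations ran from -0.287 to 0.199. With the replicate block, 73 genes were higher and 39 lower, 6 were past the cut-off and apart in both states, and the share with the same sign was 33.6%.

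With each array left out, genes higher ranged from 58 (without G-Sham replicate 1) to 284 (without FLT-Sham replicate 8), genes lower from 52 (without FLT-Surgery replicate 1) to 216 (without G-Sham replicate 5), those at an adjusted p of 0.05 from 0 to 1, those apart in both states from 12 to 43, the same-sign share from 30.3% to 41.5%, and interaction genes from 0 to 2538. The difference in probes above background ranged from -188 to 1285.

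Over 581 refitted values of the 20 named genes none changed sign, 384 stayed past the cut-off and 197 did not; Cbx2 and Nhlh1 lost it in 21 of 29 fits, Lox and Myh2 in 18 of 29 and Ccna2 in 17 of 30. Normexp left 0 genes past it, slide 1 alone 4 and slide 2 alone 2. Serpinb6c turned to -0.12 with Cy5 alone. Dim signal limits most of these values.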
